A study of Mus musculus with 30 samples.

Results

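The doublecortin family in the mouse consists here of Dcx (ENSMUSG00000031285), Dclk1 (ENSMUSG00000027797) and Dclk2 (ENSMUSG00000028078), and every splicing event that the authors listed for these 3 genes was collected by gene symbol from all 4 splicing tables of the study. The search found 5 distinct events, 2 in Dcx, 1 in Dclk1 and 2 in Dclk2, among 4923 distinct events in 2020 genes. They account for 10 of the 6491 entries of the tables. In both classes of embryonic cortical neuron, every listed event of the family was lower in the knockout of the splicing factor NOVA2. These were 4 events in Emx1-Cre neurons, where 51.6% of all listed events were lower, and 3 in Gad2-Cre neurons, where 58.6% were. The Dclk2 events share junctions, and the direction of the Dcx event depends on which of its forms is named first. The counts therefore hold few separate changes. The table of Purkinje tissue, which is smaller with 603 events in 287 genes, listed 0 events of the family.

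Doublecortin, the product of Dcx, binds and stabilises microtubules in young neurons that migrate and extend axons, and in humans mutations of the gene cause lissencephaly or a doubled cortex. Dclk1 and Dclk2 encode related proteins that join doublecortin domains to a serine/threonine kinase domain, and Dclk1 also gives shorter kinase forms without those domains. NOVA2 is a neuronal RNA-binding protein that recognises the tetramer YCAY, in which each Y is C or T in DNA letters, and it favours or blocks the use of alternative exons depending on where it binds.

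The labels list 30 samples in 10 groups of 3, of which 18 samples in 6 groups stand behind the tables. Emx1-Cre Nova2 conditional knockout (cKO) and Emx1-Cre control neurons, and Gad2-Cre Nova2 cKO and Gad2-Cre control neurons, were sorted from cortex at embryonic day 18.5. Pcp2-Cre Nova2 cKO and Pcp2-Cre control samples were Purkinje layers dissected from cerebellum at postnatal day 28. All 6 groups were C57BL/6J with ribosomal RNA depleted, and the controls are labelled wild type with the same Cre. Emx1 drives Cre in the progenitors that give rise to excitatory cortical neurons and to glia, Gad2 in inhibitory neurons and Pcp2 in Purkinje cells. A dissected layer also holds cells in which Pcp2-Cre is not active. Whether the 3 samples within each group are separate animals is not stated by the labels, so the authors' p-values may measure technical spread.

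An inclusion level runs from 0 to 1 and is the authors' estimate of how much RNA carries the alternative region rather than the other form. A level that rests largely on junctions shared with other forms was not read as such a share. In the family this applies to the longer Dclk2 form and to both Dcx events, described below. Every level is 1 pooled value for its group and has no replicate error of its own; the only measures of spread are the authors' p-value and false discovery rate (FDR). The depth of the libraries is unknown. Coverage, which the sources used here do not define, is the authors' measure of the evidence per event and was at least 20 throughout. No listed event had an FDR above 0.05 or a difference below 0.1 in size, and an event that is absent from a table may have missed either threshold or may not have been covered, so absence does not show that it was unchanged. Of 28 marker genes of neuronal and other cell types, an event was listed for 3 among Emx1-Cre neurons, for 2 among Gad2-Cre neurons, for 0 between controls and for 1 in Purkinje tissue. The tables hold no expression levels, so the purity of the sorted cells and the dissected layers was not tested.

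The sequences of the exons that carry the Dclk1 and Dclk2 results are given in mm10 coordinates counted from 1, read from the GENCODE M21 transcripts. Capitals mark YCAY, searched on the transcript strand with overlapping matches counted.
Dclk2 exon of 48 nt, chr3:86830824-86830871, minus strand: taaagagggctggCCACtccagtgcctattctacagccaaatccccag
Dclk1 exon of 74 nt, chr3:55521850-55521923, plus strand: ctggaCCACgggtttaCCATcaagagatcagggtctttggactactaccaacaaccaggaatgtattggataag

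The Dclk2 exon holds 1 YCAY, and 51.8% of 469 internal coding exons of that length in GENCODE hold at least 1. The Dclk1 exon holds 2, and of 844 such exons of its length 66.4% hold at least 1 and 32.9% hold at least 2. These counts are a description of letters within the exons. Intron sequence around them was not used here.

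**Figure D1:**
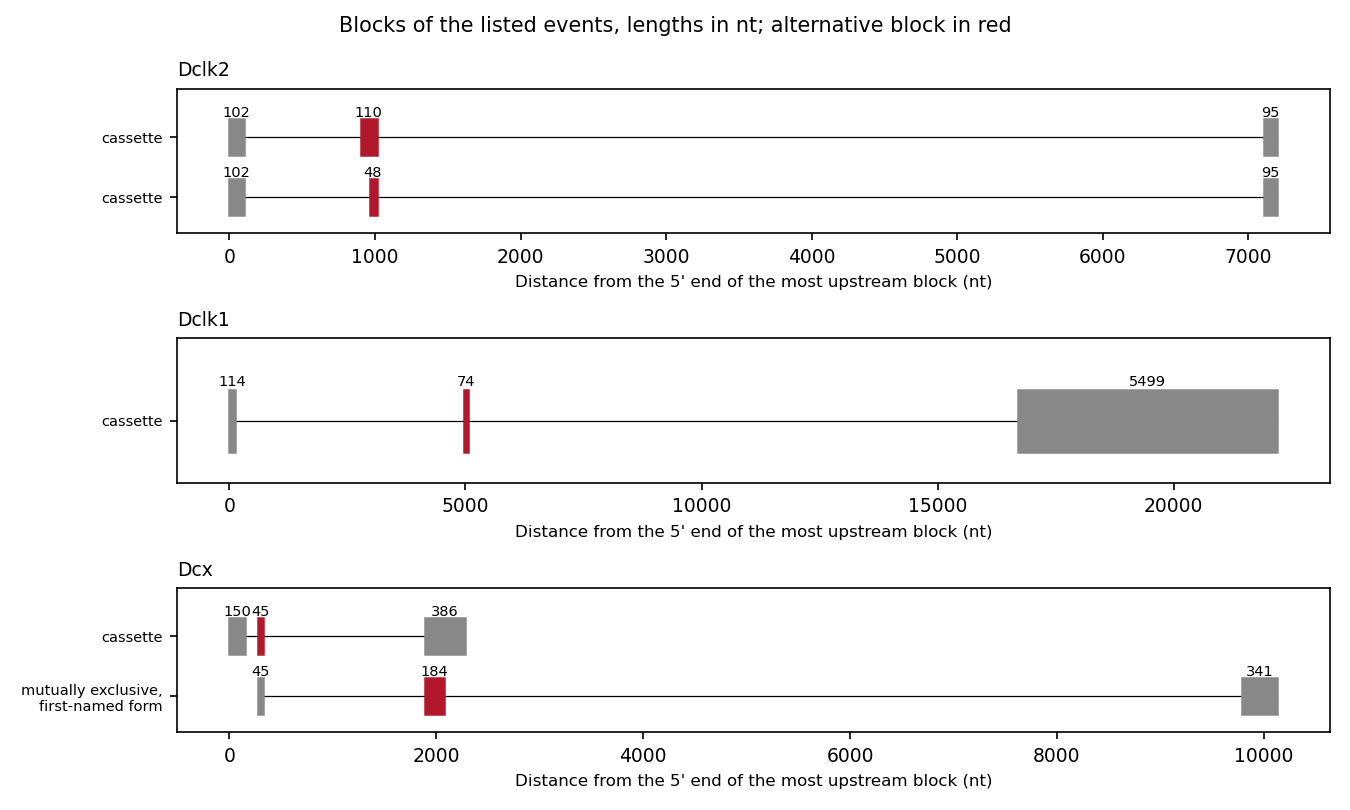
Positions of the blocks of each listed event along the gene, as distance in nt from the 5′ end of the most upstream block; each row is 1 event, boxes are drawn to scale with their lengths in nt, and the red box is the alternative block. The pair of Dclk2 events shares the 3′ edge of its alternative block, and the pair of Dcx events shares the 45 nt region.

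The 48 nt exon of Dclk2 had the largest difference between cKO and control of the family in both classes. It is coding, has a length that keeps the reading frame, and stands after 319 full codons in the 711-codon reading frame of the transcript Dclk2-206. That transcript is the 1 of 9 GENCODE transcripts of the gene with the exon, while 5 join the flanking exons of 102 and 95 nt directly. In the authors' deposited table the inclusion level was 0.0781 in Emx1-Cre Nova2 cKO neurons, against 0.412 in Emx1-Cre control neurons (FDR 1.17e-24, coverage 302). It was 0.0687 in Gad2-Cre Nova2 cKO neurons, against 0.268 in Gad2-Cre control neurons, again the authors' values (FDR 4.46e-10, coverage 244). The exon therefore fell in both classes, to 19.0% of the control level in Emx1-Cre and to 25.7% in Gad2-Cre neurons.

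The other Dclk2 event has the same 3′ edge and the same flanking exons, but its alternative exon of 110 nt starts 62 nt farther upstream, from chr3:86830824 to 86830933. Its upstream edge begins no GENCODE exon of the gene, and 110 nt is not a multiple of 3. The authors listed this form at 0.0418 in Emx1-Cre Nova2 cKO neurons, against 0.275 in Emx1-Cre control neurons (FDR 9.61e-24, coverage 161). In Gad2-Cre neurons the authors' levels were 0.0385 in Nova2 cKO, against 0.159 in control (FDR 8.82e-10, coverage 129).

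**Figure D2:**
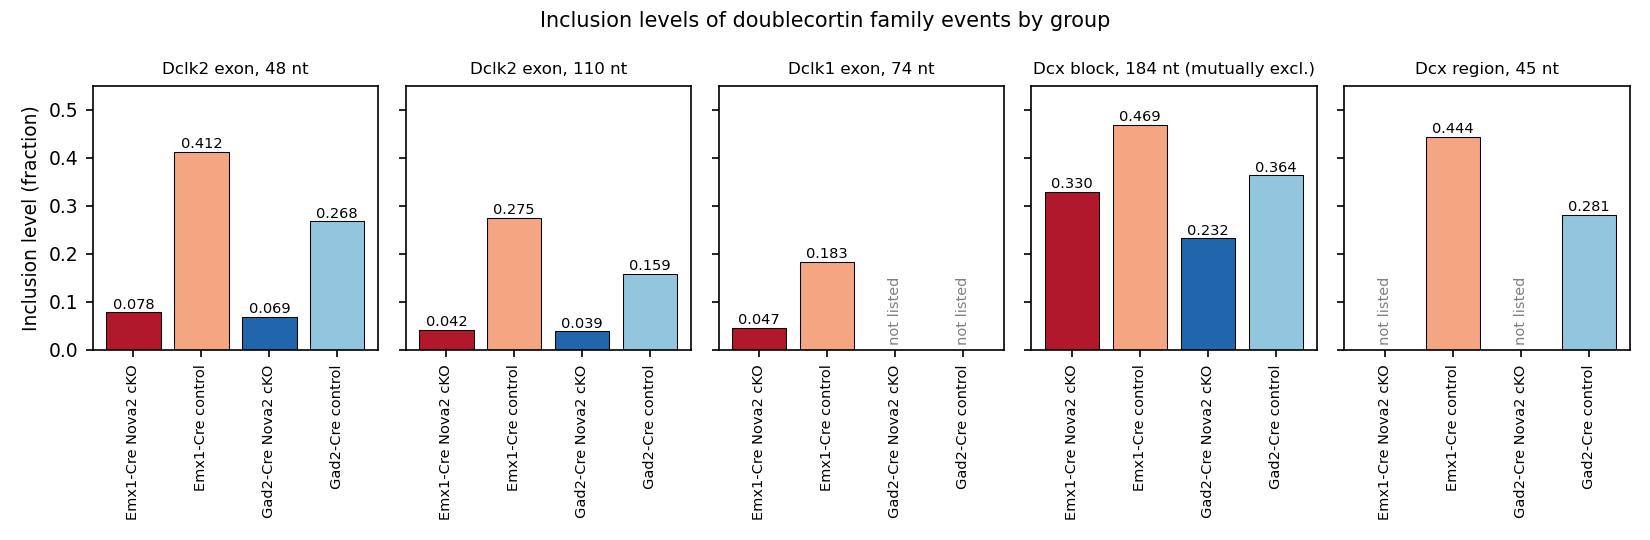
Inclusion level, a fraction given by the authors as 1 pooled value per group, of each doublecortin family event in cKO and control neurons of the Emx1-Cre and Gad2-Cre classes; groups with no listed value are marked. Both cKO levels of the 48 nt Dclk2 exon lie under 0.08, and the control levels are 0.412 and 0.268.

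The Dclk2 events are not independent measurements. Both use the junction from the shared 3′ edge to the 95 nt exon and both use the same skipping junction. The authors' name of the 48 nt exon carries 2 numbers, 9 and 26, which were not matched to junctions. The name of the 110 nt form carries a number for each of its junctions, which is not defined in the sources used here. Over 1073 cassette events named in this way, all 459 junctions that occur in several events (100%) carried a single number when the first number was read as the 5′ junction, against 45.3% when read the other way round. For the 110 nt form the number was 3 for the junction into its own upstream edge, 8114 for the shared junction out of it and 5044 for skipping. When the odds of inclusion of the 48 nt exon were divided by 2, as if 1 of its 2 inclusion junctions counted, the level came to 0.0406 in Emx1-Cre Nova2 cKO, 0.259 in Emx1-Cre control, 0.0356 in Gad2-Cre Nova2 cKO and 0.154 in Gad2-Cre control neurons. The listed levels of the 110 nt form exceeded these by 0.00121 in the closest group, Emx1-Cre cKO, and by 0.0156 in the farthest, Emx1-Cre control. The level of the 110 nt form thus rests largely on junctions it shares with the 48 nt exon. The tables hold no separate value for its own upstream edge. The 48 nt exon also uses a junction into its own upstream edge. Its coverage was 1.88 times that of the 110 nt form in Emx1-Cre neurons and 1.89 times in Gad2-Cre neurons.

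**Figure D3:**
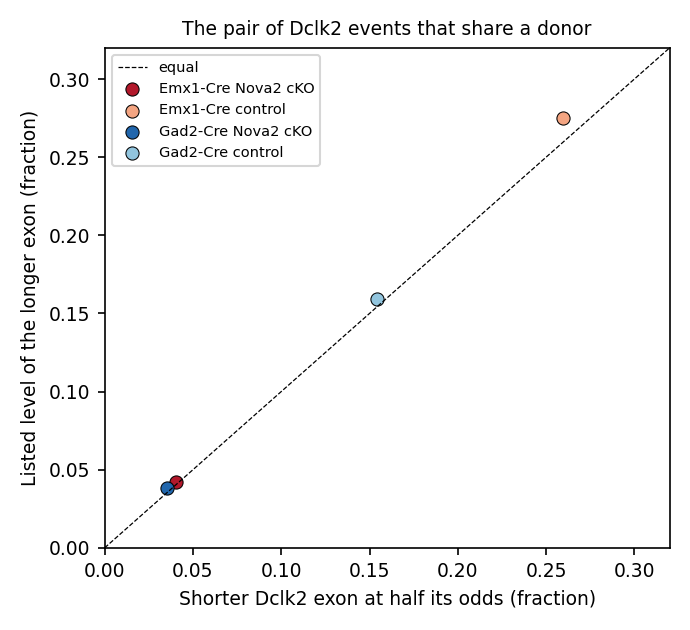
Listed inclusion level of the 110 nt form of Dclk2 against the level of the 48 nt exon with its odds divided by 2, both fractions, 1 point for each of the 4 cortical groups, with the line of equal values dashed. All 4 points lie above the line by 0.0156 or less.

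Dclk1 had a single listed event, in Emx1-Cre neurons, near the 3′ end of the gene. The authors' deposited table gave its 74 nt exon an inclusion level of 0.0466 in Nova2 cKO, against 0.183 in control neurons, which is 25.5% of the control level (FDR 0.0137, coverage 99.2). This was the weakest evidence in the family, and its p-value before adjustment was 0.00209. The event is also assigned to a second gene ID, which was not analysed here. Neither the Gad2-Cre table nor the table of controls listed it, so no difference between the classes could be tested for Dclk1.

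The 74 nt exon changes the end of the DCLK1 kinase forms, because its length is not a multiple of 3. Of 15 GENCODE transcripts, 2 include it between the exon of 114 nt and the last exon, and 4 skip it. With the exon, 43 codons follow the 114 nt exon before a stop codon. Without it, 54 codons follow, so the forms differ by 11 codons in length and in the frame of the last exon. The coding part of the last exon is printed because it is read in both frames; the first capital triplet is the stop codon of the form with the 74 nt exon and the second is that of the form without it.
Dclk1 last exon, coding part, chr3:55533570-55533734, plus strand: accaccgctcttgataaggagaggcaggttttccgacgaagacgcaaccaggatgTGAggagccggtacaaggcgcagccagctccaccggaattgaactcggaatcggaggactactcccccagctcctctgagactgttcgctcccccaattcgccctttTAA

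Dcx had the deepest coverage of the family, 1520 in the Emx1-Cre table, where it ranked 9 of 2682 events, and 1092 in the Gad2-Cre table, where it ranked 20 of 1970. In its mutually exclusive event the level is that of the form the authors name first, which runs from a 45 nt region (chrX:143932897-143932941) through a block of 184 nt (chrX:143931143-143931326) to the exon of 341 nt. By the authors' values this form stood at 0.330 in Emx1-Cre Nova2 cKO neurons, against 0.469 in Emx1-Cre control neurons (FDR 3.71e-09). It stood at 0.232 in Gad2-Cre Nova2 cKO neurons, against 0.364 in Gad2-Cre control neurons, in the authors' deposited table (FDR 8.01e-14). The listed level fell in both classes, to 70.3% of the control level in Emx1-Cre and to 63.9% in Gad2-Cre cKO neurons. In the event name, the junction shared with the other Dcx event has the number 5051. The junction out of the 184 nt block has 55. These numbers are not defined, but by them the level rests largely on the shared junction. It was therefore not read as the share of RNA with the 184 nt block.

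The other Dcx event concerned the 45 nt region itself and was listed only in the table of controls; its difference between cKO and control could not be tested. The authors' level of the region was 0.444 in Emx1-Cre control neurons, against 0.281 in Gad2-Cre control neurons (FDR 2.81e-13, coverage 1143). No cassette event of that table had a higher coverage. The region lies outside annotated coding sequence, upstream of the start codon. Its 3′ edge ends the first exon of 3 of 6 GENCODE transcripts (Dcx-202, Dcx-205 and Dcx-206), in which it is the end of a longer exon, while its 5′ edge begins no GENCODE exon. The other 3 transcripts join an upstream first exon directly to the first coding exon of 386 nt, as in the skipped form.

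The 2 Dcx events share the junction from the 45 nt region to the first coding exon, and the number 5051 stands for it in both names. For the cassette, the number of the junction into the 45 nt region was 5 and that of skipping was 10933. By these numbers the level of the region rests largely on the junction out of it. That junction also belongs to the 3 transcripts whose longer first exon ends at the same edge. Inclusion of the 45 nt as a separate exon is not given separately. For the mutually exclusive event, the number of the junction out of the 184 nt block was 55, and the numbers of the other form were 20 and 14613. The blocks of that other form were not analysed here, since the deposited intervals hold only the first-named form of each mutually exclusive event. The 3′ edge of the 184 nt block lies inside the first coding exon and ends none of the GENCODE exons of the gene (0 of 6 transcripts). The share of RNA that uses this edge is not given separately. The block covers 162 of the 364 coding nt of that exon, and the 202 nt it leaves out are not a multiple of 3.

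Among controls, the listed levels of the family were higher in Emx1-Cre than in Gad2-Cre neurons. In the table of controls all 3 family events were higher in Emx1-Cre control than in Gad2-Cre control neurons, whereas 36.3% of all 1236 events and 39.5% of the 534 cassettes in that table were. Because the Dclk2 pair shares junctions, these 3 events stand for 2 genes. None of the 3 had a difference of at least 0.2 in size (0 events), against 50.4% of the table. Besides the Dcx region, these were the 48 nt Dclk2 exon, at 0.412 in Emx1-Cre and 0.268 in Gad2-Cre control neurons (authors' FDR 0.000931), and the 110 nt form, at 0.275 and 0.159 (authors' FDR 0.00227). The mutually exclusive Dcx form was not listed there, although the control levels given by the knockout tables were 0.469 in Emx1-Cre and 0.364 in Gad2-Cre neurons, a gap of 0.105. The control level of an event was the same, within 1e-06, in the table of controls as in the Emx1-Cre table at all 307 shared events and as in the Gad2-Cre table at all 323, so these comparisons share their control samples.

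In the cKO neurons the gap between classes was small for Dclk2 and remained for Dcx. The 48 nt exon differed by 0.0094 between Emx1-Cre and Gad2-Cre cKO neurons, against 0.144 between the controls. The 110 nt form differed by 0.00332 between the cKO groups, against 0.116 between the controls. The mutually exclusive Dcx form differed by 0.0972 between the cKO groups, against 0.105 between the controls. No table compares the cKO groups directly, so these gaps have no test of their own.

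Whether the change itself differed between classes was tested on the 823 events listed in both knockout tables, with each SE taken as the difference divided by the normal quantile of its deposited p-value. The 48 nt Dclk2 exon changed by -0.334 (SE 0.0313) in Emx1-Cre and by -0.199 (SE 0.0293) in Gad2-Cre neurons. The difference of these changes was -0.135, with a 95% interval from -0.219 to -0.0508 (Benjamini-Hochberg adjusted p = 0.016 over the 823 events). The 110 nt form, which shares junctions with it, gave -0.112 (interval from -0.169 to -0.0563, adjusted p = 0.00141). For each event this difference equals the gap between the cKO groups less the gap between the controls. The cKO gaps of Dclk2 were small, so the result is largely the control gap, 0.144 for the 48 nt exon and 0.116 for the 110 nt form. It is not evidence separate from that gap. On the log-odds scale, added after the levels had been seen, neither Dclk2 event passed (48 nt exon, -0.51, interval from -1.11 to 0.0911, adjusted p = 0.289; 110 nt form, -0.61, adjusted p = 0.185). On that scale the classes were not shown to differ. The Dcx form changed by -0.139 (SE 0.0212) and by -0.131 (SE 0.0161), a difference of -0.00815 with an interval from -0.0604 to 0.0441 (adjusted p = 0.903). Of all 823 events, 106 passed (12.9%).

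**Figure D4:**
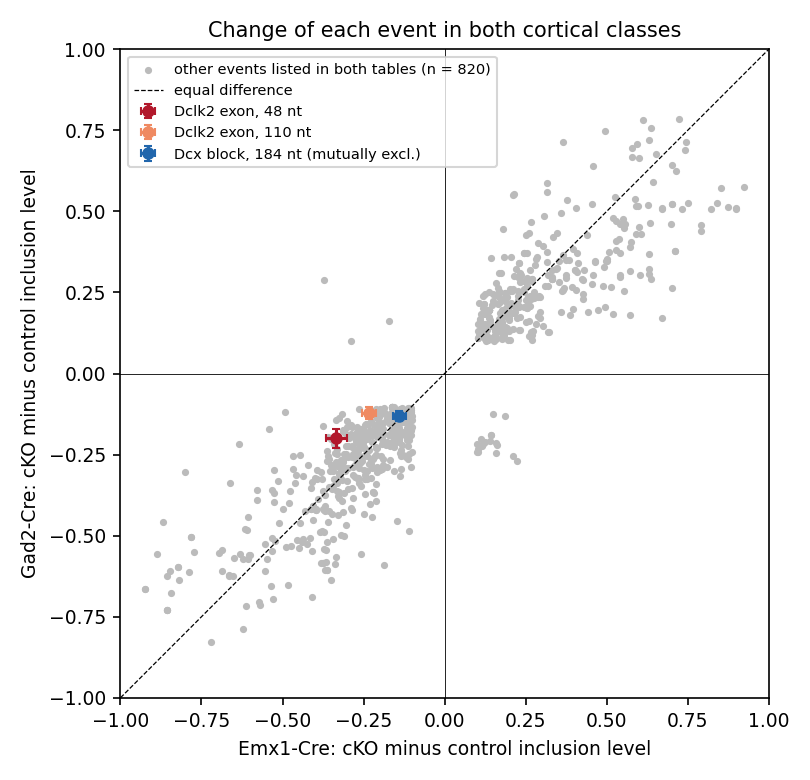
Difference in inclusion level, cKO minus control, in Gad2-Cre neurons against Emx1-Cre neurons for the 823 events listed in both tables; coloured points are doublecortin family events with SE bars derived from the authors' p-values, grey points are other events, and the dashed line marks equal differences. Both Dclk2 points lie above the line, at -0.334 and -0.233 in Emx1-Cre neurons, and the Dcx point lies close to it.

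The direction of the family's changes has to be read against the tables as a whole. All 4 events listed in the Emx1-Cre table were lower in cKO, where 51.6% of 2682 events were, and so were all 3 among Gad2-Cre neurons, where 58.6% of 1970 events were. Among cassettes alone the shares lower in cKO were 53.1% in Emx1-Cre and 63.8% in Gad2-Cre neurons. Because the Dclk2 pair shares junctions, these counts stand for 3 and 2 changed genes. For the mutually exclusive Dcx event, the direction depends on which form is named first, and among events of that type 68% were lower in cKO in Emx1-Cre neurons and 62% in Gad2-Cre neurons. A pair of the family's 4 Emx1-Cre events, both in Dclk2, had a difference of at least 0.2 in size, and 52.3% of that table did. In Gad2-Cre neurons 0 of 3 did, against 50.8% of the table. The 48 nt Dclk2 exon ranked 260 of 912 cassettes by size of difference in Emx1-Cre and 453 of 726 in Gad2-Cre neurons. The 3 family events listed in both knockout tables are 3 of the 4 in Emx1-Cre, where 30.7% of events were shared, and all 3 in Gad2-Cre neurons, where 41.8% were.

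**Figure D5:**
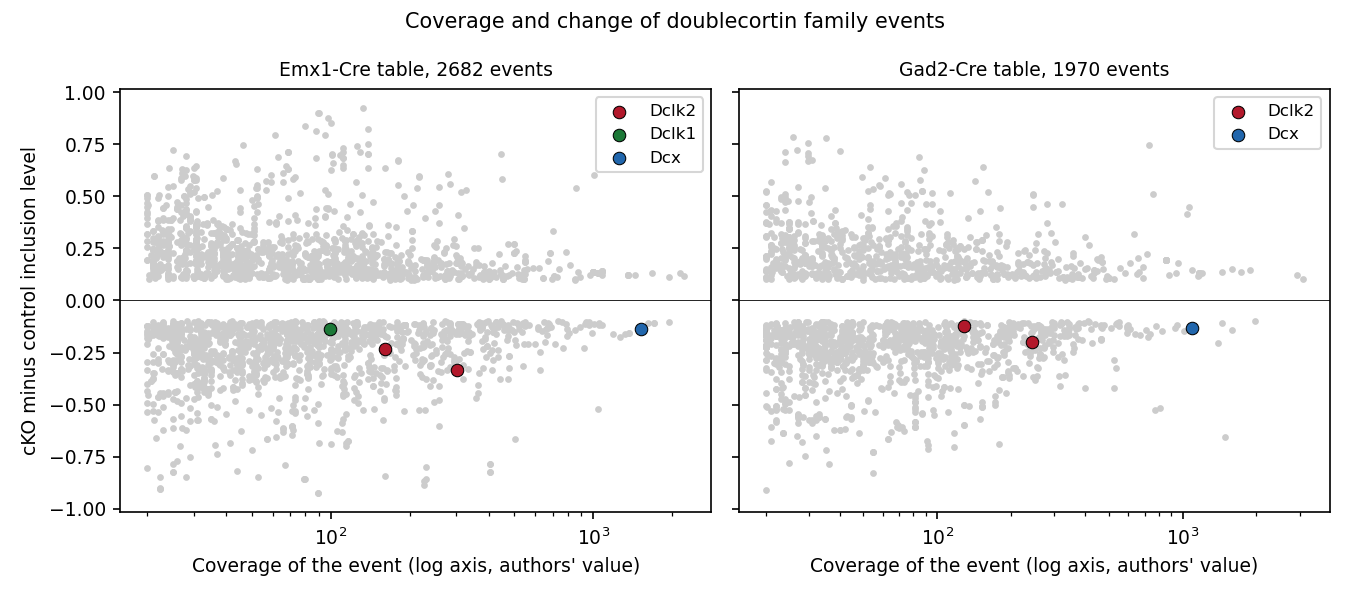
Difference in inclusion level, cKO minus control, against the authors' coverage on a log axis for all events of the Emx1-Cre and Gad2-Cre tables in grey, with doublecortin family events coloured by gene. All coloured points lie below 0, and the Dcx points, at a coverage of 1520 and 1092, are near the right edge of both panels.

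Among related genes, none of 7 other doublecortin-domain genes had an event in any table (0 genes). Only genes with an event past the authors' thresholds are listed. The share of all tested genes that was listed is therefore unknown, here and for the lists below. The counts of listed genes are not read as a result about a list. Among 32 structural microtubule-associated protein genes, 9 were listed in the Emx1-Cre table, 2 higher and 7 lower in cKO by their largest event, where 51.1% of the 1044 distinct gene entries were higher; an entry can name several overlapping gene IDs, of which that table holds 1157. Gad2-Cre neurons also had 9 listed, again 2 higher and 7 lower, where 48.1% of 880 gene entries (976 IDs) were higher. The median size of their largest difference was 0.353 in Emx1-Cre and 0.319 in Gad2-Cre neurons, against 0.204 in Emx1-Cre and 0.208 in Gad2-Cre neurons over all gene entries. The largest was taken over all listed events of a gene, 1 for Map1s and 22 for Map2 in Emx1-Cre neurons. In Gad2-Cre neurons Map1s had 1 and Map2 had 19. More events make a larger maximum likelier, and event numbers were not matched, here or for the lists below. By listed level, Map4, which binds microtubule walls, fell most in Emx1-Cre neurons. Its first-named mutually exclusive form stood at 0.0105 in Emx1-Cre cKO, against 0.627 in control neurons (authors' values, FDR 0.00336, coverage 65.7). As for Dcx, its direction depends on which form is named first. The same holds for the Flna, Ap1m1, Mark1, Camk2g and Camk2b forms given below. Counts of genes higher or lower that include such forms depend on it too. An exon of Clip1, a protein of growing microtubule ends, rose to 0.673 in Emx1-Cre cKO, against 0.271 in control neurons, and to 0.441 in Gad2-Cre cKO, against 0.123 in control neurons, all the authors' values. Tandem exons of Clasp2, a stabiliser of microtubule ends, fell to 0.121 in Gad2-Cre cKO, against 0.638 in control neurons (authors' values).

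Between controls, 6 of the microtubule-associated genes were listed and all 6 were lower in Emx1-Cre, where 37.5% of 552 gene entries (622 IDs) were higher, with a median size of 0.208; a Clasp2 exon stood at 0.277 in Emx1-Cre and 0.816 in Gad2-Cre control neurons (authors' values). The family's 3 events, in 2 genes, ran the other way in that table. The Purkinje table listed 4 of the 32 genes. The order of its groups is not named in the labels, so its levels were not used and differences are given by size only. By the authors' values the largest was 0.453, in Map7d2, and the smallest was 0.187, in Eml1, the 1 gene of the 4 whose difference had the opposite sign.

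Of 30 neuronal migration and lissencephaly genes, 4 were listed among Emx1-Cre neurons (2 in each direction), 5 among Gad2-Cre neurons (3 higher, 2 lower), 3 between controls (all lower in Emx1-Cre) and 2 in the Purkinje table. The shares of all gene entries that were higher were the 51.1%, 48.1% and 37.5% given above for those 3 cortical tables. The median size of their largest difference was 0.299 in Emx1-Cre neurons, 0.152 in Gad2-Cre neurons and 0.270 between controls, where all gene entries had 0.204, 0.208 and 0.209 in the same tables. Tandem exons of Kif2a, a kinesin that takes microtubules apart, fell in both classes: the authors' levels were 0.201 in Emx1-Cre cKO, against 0.625 in control neurons, and 0.289 in Gad2-Cre cKO, against 0.814 in control neurons. The largest rise among these genes was in Dab1, an adaptor of reelin signalling, to 0.822 in Emx1-Cre cKO, against 0.00769 in control neurons (authors' values). In Gad2-Cre neurons it was in the spectraplakin gene Macf1, to 0.259 in cKO, against 0.0226 in control neurons, again by the authors' values. A first-named form of filamin A, Flna, stood at 0.434 in Emx1-Cre and 0.875 in Gad2-Cre control neurons (authors' values). In the Purkinje table the authors' differences were 0.154 in size in Tubg1 and 0.133 in Vldlr.

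Of 13 genes of doublecortin binding partners, 1 was listed among Emx1-Cre neurons (higher in cKO), 2 among Gad2-Cre neurons (1 in each direction), 1 between controls (higher in Emx1-Cre) and 0 in the Purkinje table. Their median sizes were 0.107, 0.140 and 0.154 in those 3 cortical tables, all below the medians over all gene entries. Each rests on only 1 or 2 genes, too few to describe the list. The authors gave Usp9x, a deubiquitinase, 0.589 in Emx1-Cre cKO, against 0.482 in control neurons. They gave an Ap1m1 form, of a clathrin adaptor, 0.609 in Gad2-Cre cKO, against 0.755 in control neurons. A splice site form of the microtubule-regulating kinase Mark1 was at 0.918 in Gad2-Cre cKO, against 0.784 in control neurons, and at 0.938 in Emx1-Cre control neurons (authors' values). Its FDR was 0.0413 in Gad2-Cre neurons (coverage 39) and 0.0399 between controls (coverage 26.5), both near the threshold. Of 14 genes of the calmodulin-dependent kinase family, to which the DCLK kinase domains are related, 6 were listed among Emx1-Cre neurons (4 higher, 2 lower), 2 among Gad2-Cre neurons (both lower), 3 between controls (all lower in Emx1-Cre) and 1 in the Purkinje table. Over all gene entries 51.1%, 48.1% and 37.5% were higher in these 3 cortical tables. The median size of these kinase genes was 0.241 in Emx1-Cre neurons, against 0.204 over all gene entries. It was 0.541 in Gad2-Cre neurons, over only 2 genes, against 0.208, and 0.257 between controls, against 0.209. By the authors' values a Camk2g form fell to 0.218 in Emx1-Cre cKO, against 0.844 in control neurons, and a Camk2b form rose to 0.429 in Emx1-Cre cKO, against 0.107 in control neurons. An exon of Cask, a synaptic scaffold, fell to 0.190 in Gad2-Cre cKO, against 0.880 in control neurons, again by the authors' values. Between controls a Camk2b exon was at 0.424 in Emx1-Cre and 0.733 in Gad2-Cre neurons, and the Camk2g exon of the Purkinje table differed by 0.142 in size (authors' values).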

How the data were processed

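Splicing was measured by RNA-seq and quantified by the authors with Quantas, in mm10 coordinates, per the labels; the submitters' processing notes also name kallisto and edgeR, with no role stated. Aligner and strandedness: not given in the sources used here. Per the file headers, each deposited table holds 1 inclusion level per group, a fraction; their difference, a deposited score of group 1 minus group 2, turned here to cKO minus control; the authors' p-value and FDR; and the authors' coverage, a signal. Since levels are pooled, no test over samples was possible and depth is unknown. Levels were used as deposited. Changes were compared between classes with a two-sided z test, each SE being the difference divided by the normal quantile of the authors' p, with Benjamini-Hochberg adjustment; this was tested on simulated data. Alternatives were a difference of 0.2, an FDR of 0.01, a coverage of 40, 1 event per gene, fewer events in the adjustment, SE from the FDR, and log odds with levels held between 0.01 and 0.99. Exons were matched to GENCODE M21 (GRCm38). Gene lists followed symbol and Ensembl ID; the genes named are, per list and table, those with the largest difference in each direction. Members and lists were chosen with earlier results of these data known. Python 3.11.15, scipy 1.17.1, pandas 2.3.3, numpy 2.4.6 and matplotlib 3.10.9 were used. Not analysed here were 12 further samples (4 groups) and the Purkinje levels, whose group order is not named.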

Additional observations from a re-analysis of the deposited data

Results flagged for a closer look

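The Dclk2 exon of 48 nt was picked out because its change in level differed between the cortical classes. The difference of changes, Emx1-Cre minus Gad2-Cre, was -0.135. The 110 nt form, which shares junctions with the 48 nt exon, was picked out for the same reason, at -0.112. Neither event passed on the log-odds scale. Their cKO levels lay between 0.0385 and 0.0781 in both classes, and their control levels between 0.159 and 0.412.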

How the results depend on the processing

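With a difference of at least 0.2 in size, the number of listed doublecortin family events was 2 in place of 4 in the Emx1-Cre table, 0 in place of 3 in the Gad2-Cre table and 0 in place of 3 in the table of controls. A coverage of at least 40 changed none of these counts, an FDR of at most 0.01 left out the Dclk1 event (3 in Emx1-Cre), and 1 event per gene gave 3, 2 and 2; the Purkinje count was 0 throughout. The change differed between classes for 106 of 823 events (12.9%) in the main test. With a coverage of at least 40 in both tables it differed for 85 of 630 (13.5%). Among cassette and tandem cassette events alone it differed for 86 of 503 (17.1%). With SE from the FDR the count was 92 of 823 (11.2%). On the log-odds scale, added after the levels had been seen, it was 133 of 823 (16.2%). Both Dclk2 events passed in every test except that on the log-odds scale, with an adjusted p of up to 0.0345. Neither passed on the log-odds scale. There the Dcx difference was 0.0494 in place of -0.00815, neither value passing. No paired analysis was possible because the tables hold pooled levels with no value per replicate, which also kept single replicates from being left out.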
